A study of Mus musculus with 24 samples.

Results

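The early growth response (Egr) genes Egr1, Egr2, Egr3 and Egr4 and the corepressor genes Nab1 and Nab2 were followed through RNA sequencing of the dorsal hippocampus of mice. These 6 genes were taken by name from the 51826 genes of the deposited count table, which were given symbols through the GENCODE M21 annotation. The choice of this family was made with earlier results of these data known, so counts of members called are descriptions. All 6 passed the filter on low counts in every comparison. EGR proteins are zinc finger transcription factors that bind GC-rich DNA, and in neurons their genes are immediate early genes, transcribed within minutes of synaptic activity through ERK signalling, SRF with its ELK partners, and CREB. The NAB1 and NAB2 proteins bind a repression domain shared by EGR1, EGR2 and EGR3 and bring in the NuRD chromatin complex. NAB genes can themselves be induced by EGR proteins, which makes a negative feedback loop.

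The labels give male C57BL/6J mice of 2 to 4 months, either wild-type (WT) littermates or CBPKIX/KIX mice. The latter carry knock-in substitutions in the KIX domain of CBP, the coactivator encoded by Crebbp, which stop the domain from binding phosphorylated CREB, and they came from matings of heterozygous parents. RNA-Seq 1 held WT homecage (n = 3), WT MWM (n = 3) and CBPKIX/KIX MWM mice (n = 3), where MWM is training in the Morris water maze with tissue taken 1 h after training on day 3. RNA-Seq 2 held WT homecage (n = 3), WT CFC (n = 4), CBPKIX/KIX homecage (n = 4) and CBPKIX/KIX CFC mice (n = 4), where CFC is contextual fear conditioning, in which a foot shock is paired with a new chamber, with tissue taken 1 h later. RNA-Seq 1 was made from rRNA-depleted total RNA and RNA-Seq 2 from polyadenylated RNA, so task, library type and run cannot be told apart between the experiments. CBPKIX/KIX homecage mice were sequenced in RNA-Seq 2 only. Crebbp counts do not read the substitutions and so do not check the genotype. The Crebbp level was 164 ± 24.7 CPM in WT MWM and 152 ± 13.1 CPM in CBPKIX/KIX MWM mice (SD, n = 3 each). In RNA-Seq 1 WT homecage mice it was 177 ± 32.9 CPM (SD, n = 3). In RNA-Seq 2 it was 73.9 ± 4.74 CPM in WT homecage (SD, n = 3), 71.8 ± 4.50 CPM in WT CFC, 74.5 ± 4.29 CPM in CBPKIX/KIX CFC and 70.4 ± 5.11 CPM in CBPKIX/KIX homecage mice (SD, n = 4 each).

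Libraries held 38174044 to 65709282 counts in RNA-Seq 1 and 15385836 to 46056290 in RNA-Seq 2. CPM below are counts scaled by the upper quartile of each library, and levels compared between genes are CPM per kilobase of annotated exon. The labels do not say that each library came from a separate mouse, so p-values measure the spread between libraries. In such bulk tissue, fewer cells of a type and less RNA per cell cannot be told apart.

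A single library stood apart before any comparison. CBPKIX/KIX homecage replicate 3 held 442 CPM of Egr1, against a mean of 60.7 ± 18.3 CPM in the other 3 libraries of its group (SD), a ratio of 7.28. Its Egr2 level was 62.2 times theirs, its Egr4 level 6.71 times and its Egr3 level 2.30 times. For Nab1 the ratio was 0.971 and for Nab2 it was 1.04. Its Egr1 level was also 2.62 times the mean of the CBPKIX/KIX mice trained in CFC, and its Egr2 level 7.74 times. The same library was high in other activity genes: 617 CPM of Arc, which encodes a synaptic cytoskeletal protein, was 8.87 times the other 3, and 117 CPM of Fos, an AP-1 subunit, was 37.1 times them. Crebbp in this library was 1.07 times the other 3. The labels give no reason for these levels, and whether its label or handling was at fault was not tested. Results that this library moved most are given with and without it. It was set apart by its levels of Egr and other activity genes, so p-values of Egr genes without it are descriptions. In RNA-Seq 1, WT homecage replicate 3 also differed from its group in many genes, and results without it are given where it changed them.

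RefSeq promoter sequence was at hand for Egr2, Egr4, Nab1 and Nab2. The 250 bases before a start of Egr2 and of Egr4 are shown because these transcripts rose with training and because CREB and SRF sites are where the KIX domain and ERK signalling would act. Capitals mark the core CREB site TGACG on either strand and, in Egr2, the CArG box bound by SRF. The Egr2 window is chr10:67537619-67537868 (plus strand) and the Egr4 window chr6:85513590-85513839 (minus strand), both in GRCm38.p6 and both free of annotated exons. RefSeq lists 5 starts for Egr2, and the start shown was chosen after the matches were seen: 3 of the 5 windows hold the core CREB sites and the CArG box shown, another holds a different CArG box, and the window of the start farthest upstream holds neither motif.
Egr2: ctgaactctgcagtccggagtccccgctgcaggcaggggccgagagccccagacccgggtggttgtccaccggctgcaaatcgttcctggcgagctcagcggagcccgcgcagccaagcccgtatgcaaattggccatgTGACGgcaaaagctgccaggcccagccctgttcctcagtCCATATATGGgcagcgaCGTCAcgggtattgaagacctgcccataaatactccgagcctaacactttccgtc
Egr4: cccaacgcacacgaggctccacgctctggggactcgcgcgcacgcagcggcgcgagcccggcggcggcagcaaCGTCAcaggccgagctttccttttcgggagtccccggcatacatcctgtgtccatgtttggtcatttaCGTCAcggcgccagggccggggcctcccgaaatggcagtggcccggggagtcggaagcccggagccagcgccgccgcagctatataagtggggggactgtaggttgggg
Both windows hold 2 core sites. In Egr2 they begin 111 and 55 bases before the start, on either side of the CArG box at 72 bases, and in Egr4 they begin 177 and 109 bases before it. Among the 32851 RefSeq windows of the same length, 17.8% hold the core site and 1.47% a CArG box, so the core site alone is common. The full site TGACGTCA, present in 1.55% of windows, matched none of the 4 members with a window.

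In Nab1 the window is of interest for the reverse direction, binding by EGR proteins. It holds 3 matches to the EGR motif GCGNGGGCG on either strand, which 4.70% of all windows hold at least a single time, and they begin 141, 109 and 38 bases before the start. It also holds a core CREB site, 123 bases before the start. The match farthest from the start, on the opposite strand, is in capitals in the stretch shown, which lies at chr1:52500571-52500599 (minus strand, GRCm38.p6) within an exon that GENCODE annotates upstream of the RefSeq start.
Nab1: gccccgcggcCGCCCACGCcgggatctgc
The Nab2 window held none of these motifs, and a match or its absence in these windows is a description of letters only.

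The members lie on 5 chromosomes of GRCm38. Egr1 (ENSMUSG00000038418.7) is at chr18:34859823-34864984 on the plus strand. Egr2 (ENSMUSG00000037868.15) is at chr10:67535475-67542188, also on the plus strand. Egr3 (ENSMUSG00000033730.3) is at chr14:70077203-70082614 on the plus strand, and Egr4 (ENSMUSG00000071341.4) at chr6:85511121-85513589 on the minus strand. Nab1 (ENSMUSG00000002881.14) is at chr1:52457294-52500679 on the minus strand. Nab2 (ENSMUSG00000025402.12), at chr10:127660918-127668568 on the minus strand, shares 1241 exon bases with Stat6, Nemp1 and an antisense gene on the plus strand. Whether reads were counted by strand is not given in the sources used here, so Nab2 counts may hold reads of those neighbours.

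In the homecage hippocampus the members differed in level by more than an order of magnitude. Per kilobase, Egr1 led in RNA-Seq 2 WT homecage mice at 16.3 ± 1.09 CPM per kb (SD, n = 3), and its lowest library was above the highest of every other member. Nab2 (9.15 ± 1.10), Egr3 (7.75 ± 0.864), Nab1 (7.54 ± 0.306) and Egr4 (6.97 ± 1.16 CPM per kb) followed, and the libraries of neighbours in this order overlapped. Egr2 was far below them at 0.217 ± 0.0642 CPM per kb, a level that rested on only 15 to 31 counts per library. In RNA-Seq 1 WT homecage mice the order was Egr1 (12.1 ± 2.50), Nab2 (11.1 ± 1.75), Egr4 (9.66 ± 2.55), Egr3 (6.32 ± 1.24), Nab1 (4.40 ± 0.646) and Egr2 (0.530 ± 0.161 CPM per kb). Libraries of neighbours in this order overlapped from Egr1 down to Nab1. In both experiments, then, the EGR transcripts were present at rest together with both corepressors, and Egr2 was the scarce member.

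**Figure D1:**
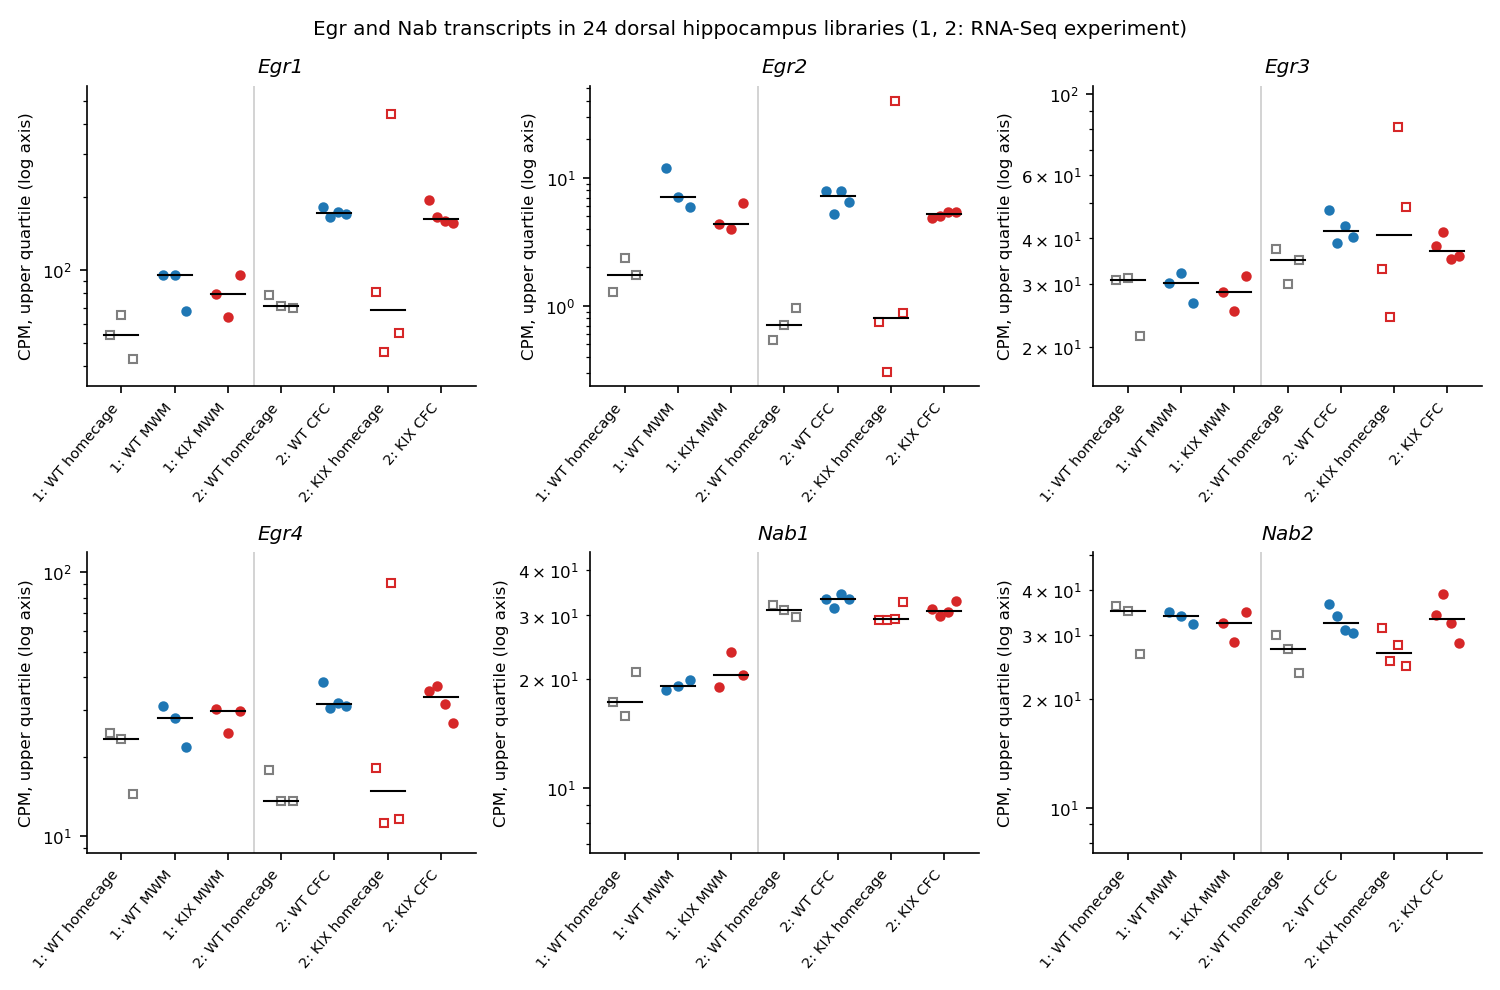
Level of each member in CPM scaled by the upper quartile (vertical log axis, its range set per gene) in 24 libraries of 7 groups, with the RNA-Seq experiment written before the group. Open squares are homecage and filled circles trained mice, grey or blue is WT, red is CBPKIX/KIX (written KIX), and each line is a group median. Egr1 to Egr4 of CBPKIX/KIX homecage replicate 3 lie above all other libraries, while its Nab1 and Nab2 levels lie among them.

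Water maze training was followed by a higher Egr2 level in WT mice. Egr2, known for its roles in hindbrain patterning and myelination, read 1.28, 2.37 and 1.75 CPM in the WT homecage libraries and 12.02, 7.11 and 5.90 CPM in the WT MWM libraries. The groups did not overlap, and the means stood in a ratio of 4.63. In all, 3.72% of 22276 genes, Egr1 also among them, had every trained library above every homecage library. The log2 fold change was 2.21 ± 0.288 (SE) with an edgeR adjusted p of 0.0229. It was the only member called, in a comparison in which 3 of 22276 genes (0.0135%) passed an adjusted p of 0.05. The others called were Fos, which rose, and the nuclear long noncoding RNA Neat1, which fell. Egr2's call was lost without WT homecage replicate 1 (edgeR adjusted p = 0.181), WT MWM replicate 1 (0.112) or WT MWM replicate 2 (0.114), and with the replicate number as a block (0.147).

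Egr1, the family member most used as a marker of neuronal activity, read 54.0, 65.4 and 43.0 CPM in WT homecage and 95.5, 95.4 and 68.0 CPM in WT MWM mice. All 3 trained libraries lay above all 3 controls, though by little at the nearest pair. The log2 fold change of 0.67 ± 0.176 (SE) did not pass adjustment over all genes (edgeR adjusted p = 0.295). In this comparison DESeq2 called 2 members among 76 genes, and edgeR with no filter on low counts 2 among 131, all of these members higher. Egr4 was at 0.38 ± 0.180, Egr3 at 0.09 ± 0.138, Nab1 at 0.09 ± 0.118 and Nab2 at 0.05 ± 0.116 (log2 fold change ± SE), and the libraries of these members overlapped between the groups. Without WT homecage replicate 3, which held the lowest Egr1, Egr3, Egr4 and Nab2 levels of its group, 2418 of 22563 genes (10.7%) were called, yet Egr2 remained the only member among them and Egr1 was at 0.53 (edgeR adjusted p = 0.0656). That library also held 1484 CPM summed over 6 choroid plexus markers, led by Ttr, against 118 and 129 CPM in the other WT homecage libraries, and the part of this in the results was not tested. Summed dentate gyrus markers (5 genes) were lower in WT MWM libraries, at 264, 266 and 254 CPM, than in WT homecage libraries, at 372, 360 and 336 CPM. Summed endothelial markers (3 genes) were at 102, 91.4 and 77.6 CPM against 125, 136 and 113 CPM. Neither list overlapped between these groups, and their part in the Egr2 and Egr1 values was not tested.

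After fear conditioning the Egr levels of WT mice were separate from those of homecage mice in all 4 family members. Egr2 read 0.54, 0.71 and 0.97 CPM in WT homecage libraries and 7.88, 5.18, 7.91 and 6.47 CPM in WT CFC libraries, a ratio of means of 9.29. Egr1 read 78.7, 71.2 and 69.6 CPM against 182, 165, 174 and 170 CPM, a ratio of 2.36. Both groups were tight, and the gap between them was wider than either. Egr4 read 17.8, 13.6 and 13.5 CPM against 38.4, 30.7, 31.9 and 31.2 CPM, a ratio of 2.21. Egr3, which acts downstream of ERK signalling in synaptic plasticity, read 37.5, 30.0 and 35.0 CPM against 47.9, 38.9, 43.3 and 40.4 CPM, a ratio of only 1.25 although the groups did not overlap. Of all genes tested, 481 of 18851 (2.55%) had every WT CFC library above every homecage library, and 5 of the 6 members did, the fifth being Nab2.

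None of these differences was called when all 15 libraries of RNA-Seq 2 shared an estimate of the spread, to which CBPKIX/KIX homecage replicate 3 belonged. There 0 of 18851 genes (0%) passed for WT CFC against WT homecage, while edgeR gave 450 genes an unadjusted p under 0.05 and DESeq2 also called 0. DESeq2 gave Egr1, Egr2 and Egr4 no p in any RNA-Seq 2 comparison, so its counts there do not bear on them. Without that library 17 of 19066 genes (0.0892%) were called, all higher after CFC, and 3 of them were members. Egr2 rose by a log2 fold change of 3.29 ± 0.279 (edgeR adjusted p = 4.19e-05), Egr1 by 1.24 ± 0.143 (edgeR adjusted p = 0.000898) and Egr4 by 1.14 ± 0.168 (edgeR adjusted p = 0.00988). Egr3 was at 0.33 ± 0.169 and was not called. A fit of the 2 groups alone called 21 of 18115 genes (0.116%), and the same 3 members were among them. Nab1 was at 0.10 ± 0.0580 and Nab2 at 0.29 ± 0.115 (log2 fold change ± SE, neither called). For Nab2 all 4 WT CFC libraries lay above all 3 homecage libraries, at a ratio of means of 1.22, close to that of Egr3.

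CBPKIX/KIX mice had a like rise when replicate 3 was left out. That library was left out for its own high Egr levels. The p-values and the lack of overlap without it therefore follow a choice made on the tested values. Egr1 read 81.1, 45.9 and 55.0 CPM in the other 3 homecage libraries and 194, 165, 160 and 156 CPM in the CBPKIX/KIX CFC libraries. Egr2 read 0.74, 0.31 and 0.88 CPM against 4.82, 5.03, 5.43 and 5.36 CPM, and Egr4 18.1, 11.2 and 11.6 CPM against 35.4, 37.1, 31.8 and 26.8 CPM. In none of these 3 genes did the groups overlap once replicate 3, which made them overlap, was left out, and the same held in the upward direction for 731 of 18851 genes (3.88%). The log2 fold changes were 1.47 ± 0.145 for Egr1 (edgeR adjusted p = 0.000159), 3.12 ± 0.285 for Egr2 (edgeR adjusted p = 7.44e-05) and 1.26 ± 0.169 for Egr4 (edgeR adjusted p = 0.00425), among 16 of 19066 genes called (0.0839%). Egr3 was at 0.12 ± 0.170, with homecage libraries that spread from 24.2 to 48.8 CPM around trained ones at 35.0 to 41.6 CPM. Nab1 was at 0.04 ± 0.0581 and Nab2 at 0.30 ± 0.115, neither called. Summed astrocyte markers (4 genes) differed among the 3 homecage libraries, at 1105, 1373 and 2493 CPM, against 1008 to 1133 CPM in CBPKIX/KIX CFC libraries, and summed CA1 markers (4 genes) were at 375, 333 and 231 CPM against 314 to 362 CPM. Their part in these differences was not tested. With replicate 3 kept, the signs and sizes were others: Egr1 was at 0.13, Egr2 at -0.96, Egr3 at -0.29 and Egr4 at 0.03 on the log2 scale, and 0 of 18851 genes (0%) were called by edgeR, with 2457 at an unadjusted p under 0.05 and 301 genes called by DESeq2. With the replicate number as a block, 4 genes were called and no member was among them.

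The genotype by CFC interaction asks whether training moved a gene by a different amount in CBPKIX/KIX than in WT mice. Without replicate 3 it was -0.17 for Egr2 (95% interval -1.02 to 0.68), 0.23 for Egr1 (-0.19 to 0.65), 0.12 for Egr4 (-0.38 to 0.62) and -0.21 for Egr3 (-0.72 to 0.30) on the log2 scale. For Nab1 it was -0.06 (-0.23 to 0.12) and for Nab2 0.01 (-0.33 to 0.36). No member was called and 0 of 19066 genes were (0%), with 672 at an unadjusted p under 0.05 in edgeR. The interval of Egr2 leaves room for a 2-fold difference. With replicate 3 the Egr2 interaction was -4.25 ± 1.64, also not called, with 0 of 18851 genes called by edgeR, 903 at an unadjusted p under 0.05 and 1 gene called by DESeq2.

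**Figure D2:**
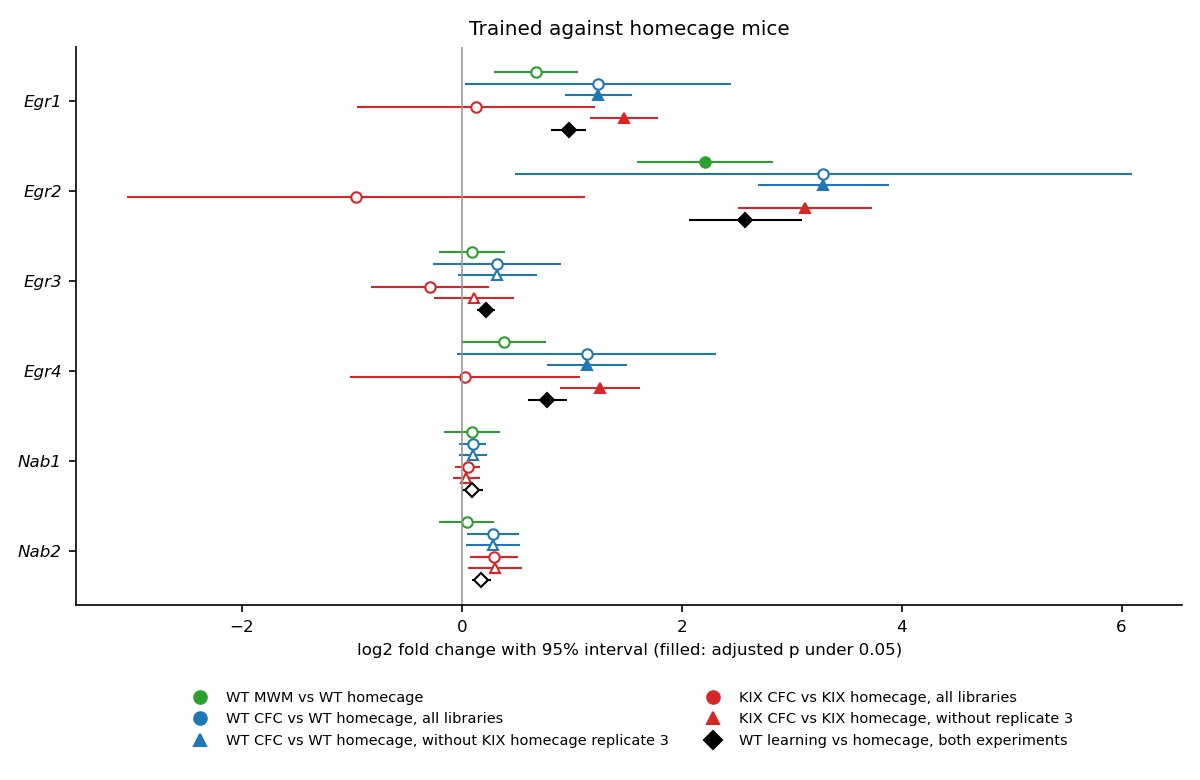
Log2 fold change of trained over homecage mice (horizontal axis) for each member, with 95% intervals. Circles use all libraries of the experiment, triangles leave out CBPKIX/KIX homecage replicate 3, diamonds pool both experiments, and filled symbols have an adjusted p under 0.05. Leaving out the library hardly moves the WT CFC values but shortens their intervals, and it moves Egr2 of CBPKIX/KIX mice from -0.96 to 3.12.

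Pooling the WT mice of both experiments, which the study did to find genes shared by the tasks, gave calls for the whole Egr family. This fit held 7 trained and 6 homecage WT libraries and no CBPKIX/KIX library, with the experiment as a block and 3 factors of unwanted variation estimated from the residuals by RUVr. All 4 Egr genes rose: Egr1 by a log2 fold change of 0.97 ± 0.0739 (edgeR adjusted p = 3.48e-05), Egr2 by 2.58 ± 0.240 (edgeR adjusted p = 0.000171), Egr4 by 0.78 ± 0.0822 (edgeR adjusted p = 0.000455) and Egr3 by 0.22 ± 0.0380 (edgeR adjusted p = 0.0194). Nab1 was at 0.10 ± 0.0446 (edgeR adjusted p = 0.278) and Nab2 at 0.18 ± 0.0406 (edgeR adjusted p = 0.0543), and neither was called. Nab2 passed in other settings, at an adjusted p of 0.00368 with DESeq2 and, with edgeR, 0.0454 with a CPM filter, 0.00899 with GC-content normalization and 0.0229 with the replicate block beside the factors, always higher after training (log2 fold change 0.18 to 0.31). Of all 22038 genes 231 (1.05%) were called, 89 higher (0.404%) and 142 lower, against 4 of the 6 members higher. The split of calls turned with the scaling, to 88 higher and 47 lower with TMM, 42 and 12 with GC-content normalization and 574 and 247 with DESeq2, while all 4 Egr genes were higher in each. The calls depend in part on the factors: with 0 factors, 9 genes (0.0408%) were called, Egr1 and Egr2 among them, while Egr4 (edgeR adjusted p = 0.156) and Egr3 (0.729) were not. Egr3 also lost its call without WT MWM replicate 2 (0.0716) or without RNA-Seq 2 WT homecage replicate 2 (0.0904).

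The rise in RNA-Seq 1 minus that in RNA-Seq 2 was -1.08 ± 1.46 for Egr2, -0.57 ± 0.682 for Egr1, -0.75 ± 0.661 for Egr4 and -0.23 ± 0.349 for Egr3 (log2, SE). Nab1 was at -0.01 ± 0.121 and Nab2 at -0.24 ± 0.164. No member was called. Across all genes 0 of 22408 were called (0%) by edgeR, with 1776 at an unadjusted p under 0.05, and 15 by DESeq2. Those errors come from a fit that held CBPKIX/KIX homecage replicate 3. Without it the differences hardly moved and the errors of the Egr genes were smaller: Egr2 was at -1.08 ± 0.430 (95% interval -1.97 to -0.19), Egr1 at -0.56 ± 0.238 (-1.06 to -0.07), Egr4 at -0.75 ± 0.262 (-1.30 to -0.21) and Egr3 at -0.23 ± 0.239 (-0.72 to 0.27). Egr2, Egr1 and Egr4 then had an unadjusted p under 0.05, as did 1757 of 22486 genes, and none of these was called (0%; edgeR adjusted p of 0.561, 0.586 and 0.4997). Library type and run differ with the task in this comparison.

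After training, the genotype contrast was small for every member but Egr2. After MWM, Egr2 read 12.02, 7.11 and 5.90 CPM in WT and 4.38, 3.97 and 6.34 CPM in CBPKIX/KIX mice, and after CFC 7.88, 5.18, 7.91 and 6.47 CPM in WT and 4.82, 5.03, 5.43 and 5.36 CPM in CBPKIX/KIX mice. All 3 and all 4 mutant libraries lay below the WT mean of their experiment, at ratios of means of 0.587 and 0.753. After CFC all 4 mutant libraries also lay below the WT mean for Egr3 and Nab1, at ratios of 0.882 and 0.94. In each experiment the Egr2 groups overlapped through the lowest WT libraries, and the Egr2 values were as follows. The log2 fold changes were -0.76 ± 0.266 after MWM (edgeR adjusted p = 0.813) and -0.41 ± 0.975 after CFC (edgeR adjusted p = 1.00), the latter with a standard error of 0.208 without CBPKIX/KIX homecage replicate 3. The MWM comparison called 0 of 22276 genes (0%; 1286 at an unadjusted p under 0.05 in edgeR, 7 genes called by DESeq2). The CFC comparison called 2 of 18851 (0.0106%), Papss2 and Slc25a34, both lower, which were named after their values were seen. The other members were nearer to 0. After MWM, Egr1 was at -0.12 ± 0.174, Egr3 at -0.06 ± 0.138, Egr4 at 0.07 ± 0.178, Nab1 at 0.13 ± 0.118 and Nab2 at -0.07 ± 0.116 (log2 fold change ± SE). After CFC, without CBPKIX/KIX homecage replicate 3, Egr1 was at -0.04 ± 0.127, Egr3 at -0.18 ± 0.156, Egr4 at -0.01 ± 0.148, Nab1 at -0.09 ± 0.0538 and Nab2 at 0.03 ± 0.105, and with that library each of these values moved by less than 0.01. The genotype difference of Egr2 in RNA-Seq 1 minus that in RNA-Seq 2 was -0.35 ± 1.21, or -0.35 ± 0.357 without that library (log2, SE). No member was called there, and edgeR called 0 of 22408 genes (0%), with 858 at an unadjusted p under 0.05, and DESeq2 0.

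Pooled over both experiments, with 4 RUVr factors and 7 libraries of each genotype, Egr2 was lower in CBPKIX/KIX mice by a log2 fold change of -0.55 ± 0.106 (95% interval -0.77 to -0.32, edgeR adjusted p = 0.0141). It was the only member among 610 of 21489 genes called (2.84%), of which 356 were lower (1.66%), and 1 of 6 members rests on this gene alone. With GC-content normalization the split was 76 higher and 186 lower. Egr3 was at -0.12 ± 0.0471 (edgeR adjusted p = 0.172). Egr1 was at -0.08 (95% interval -0.19 to 0.03), Egr4 at 0.03 (-0.10 to 0.16), Nab1 at 0.01 (-0.08 to 0.10) and Nab2 at -0.02 (-0.09 to 0.05) on the log2 scale. The call for Egr2 depends on the factors: its log2 fold change was -0.57 with 0 factors, but the edgeR adjusted p was then 0.287, with 4 genes called (0.0186%), and 0.0817 with 1 factor and 0.0406 with 2. It kept its call without each of the 14 libraries in turn, at edgeR adjusted p of 0.000939 to 0.0437, the highest without WT MWM replicate 1, which had the most Egr2 of the 14, where the log2 fold change was -0.40. Summed CA1 markers (4 genes) were also lower in CBPKIX/KIX mice, at 611, 651 and 601 CPM against 844, 839 and 700 CPM in WT after MWM, without overlap, and at 314 to 362 against 340 to 418 CPM after CFC. Their part in the Egr2 difference was not tested.

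**Figure D3:**
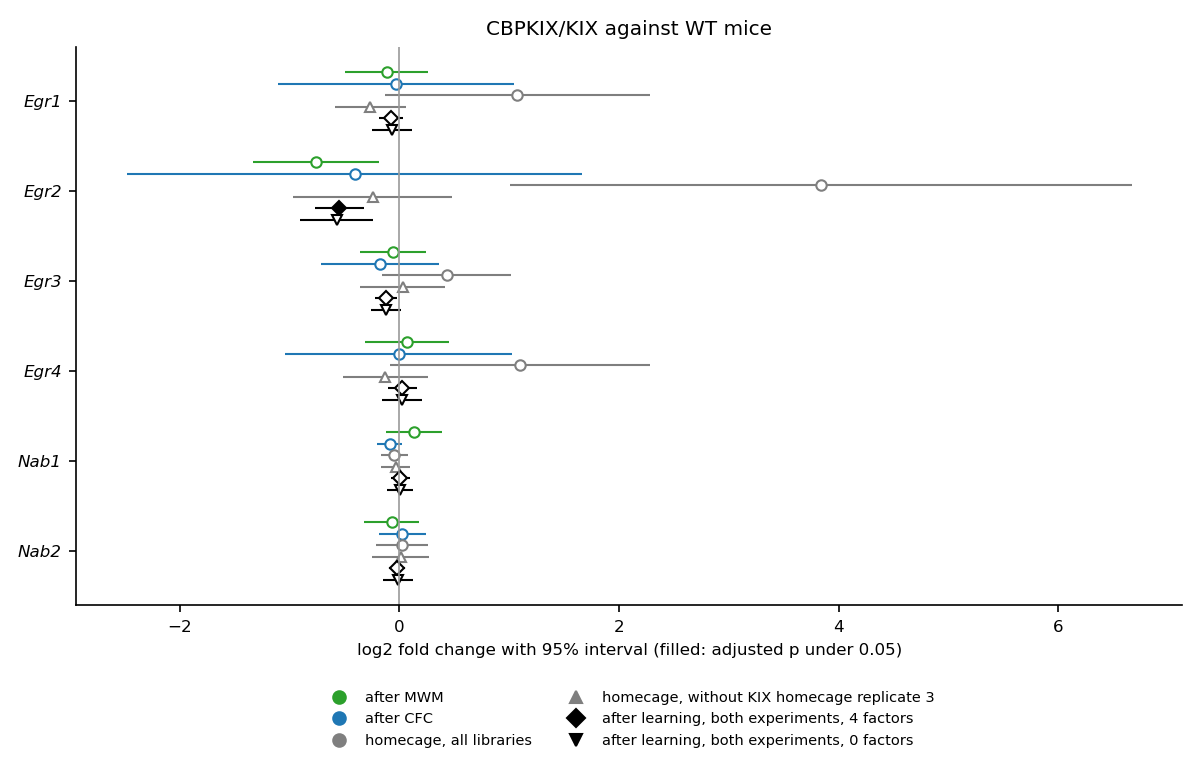
Log2 fold change of CBPKIX/KIX over WT mice (horizontal axis) for each member, with 95% intervals, after MWM, after CFC, in the homecage with and without CBPKIX/KIX homecage replicate 3, and after learning in both experiments with 4 and with 0 factors. Filled symbols have an adjusted p under 0.05, and the only filled symbol is Egr2 in the pooled fit with 4 factors, at -0.55.

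In the homecage the genotype contrast turned on replicate 3. With it, Egr2 was at 3.84 ± 1.33 and Egr1 at 1.07 ± 0.568 (log2 fold change of CBPKIX/KIX over WT homecage ± SE), while without it they were at -0.24 ± 0.339 and -0.27 ± 0.151. Egr3 went from 0.43 to 0.03 and Egr4 from 1.10 to -0.13, and Nab1 and Nab2 stayed within 0.05 of 0 in both. No member was called in either fit, in which 5 of 18851 genes (0.0265%) and 1 of 19066 (0.00524%) were called. The 5, named after their values were seen, were Papss2, Slc25a34, Nr1d2 and Aldh6a1, which were lower, and Rxfp3, which was higher. Summed astrocyte markers (4 genes) were at 1105, 1373, 1690 and 2493 CPM in CBPKIX/KIX against 1093, 1144 and 1110 CPM in WT homecage libraries. Summed CA1 markers (4 genes) were at 375, 333, 282 and 231 CPM against 422, 372 and 388 CPM. The part of these markers in the genotype values was not tested. Comparisons within an experiment share groups: WT homecage and the trained groups each enter more than a single contrast, so the values are not independent of each other.

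In WT mice, trained and homecage libraries differed in the make-up of their EGR transcripts. Of the summed Egr1 to Egr4 level per kilobase, Egr2 made up 0.459, 0.711 and 0.951% in RNA-Seq 2 WT homecage libraries and 3.23, 2.48, 3.54 and 3.00% in WT CFC libraries. Egr3 went the other way, from 24.7, 23.3 and 26.4% to 15.2, 14.3, 14.9 and 14.4%. Egr1 was at 50.8 to 54.4% before and 56.7 to 60.0% after. In RNA-Seq 1 the Egr2 share was 1.22 to 2.37% in WT homecage, 4.79 to 7.65% in WT MWM and 3.26 to 4.23% in CBPKIX/KIX MWM libraries, the last 2 groups not overlapping. After CFC it was 2.03 to 2.77% in CBPKIX/KIX libraries, which overlapped the WT CFC range. In CBPKIX/KIX homecage libraries the Egr2 share was 0.639, 0.427 and 0.893% in replicates 1, 2 and 4 and 6.87% in replicate 3, above every CFC library. Their Egr3 share was 21.9, 26.1 and 38.2% and, in replicate 3, 10.7%, below every trained library of RNA-Seq 2. These shares are descriptions with no test.

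The ratio of summed Nab to summed Egr level per kilobase was lower in trained mice of RNA-Seq 2. It was 0.535 ± 0.0369 in WT homecage (SD, n = 3) and 0.294 ± 0.0120 in WT CFC (SD, n = 4), and 0.302 ± 0.0186 in CBPKIX/KIX CFC mice (SD, n = 4). The 2 trained groups overlapped and both were apart from the WT homecage group. The Egr sum was 31.2 ± 2.86 CPM per kb in WT homecage and 65.7 ± 4.40 in WT CFC mice, while the Nab sum was 16.7 ± 1.41 and 19.3 ± 0.866 CPM per kb (SD), so the lower ratio did not come with a lower Nab level. In RNA-Seq 1 it was 0.534, 0.475 and 0.652 in WT homecage, 0.353, 0.371 and 0.477 in WT MWM, and 0.395, 0.477 and 0.381 in CBPKIX/KIX MWM libraries, with overlap through a single library of each trained group. CBPKIX/KIX homecage replicate 3 had the lowest ratio of all at 0.0978, against 0.518, 0.749 and 0.564 in the rest of its group.

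**Figure D4:**
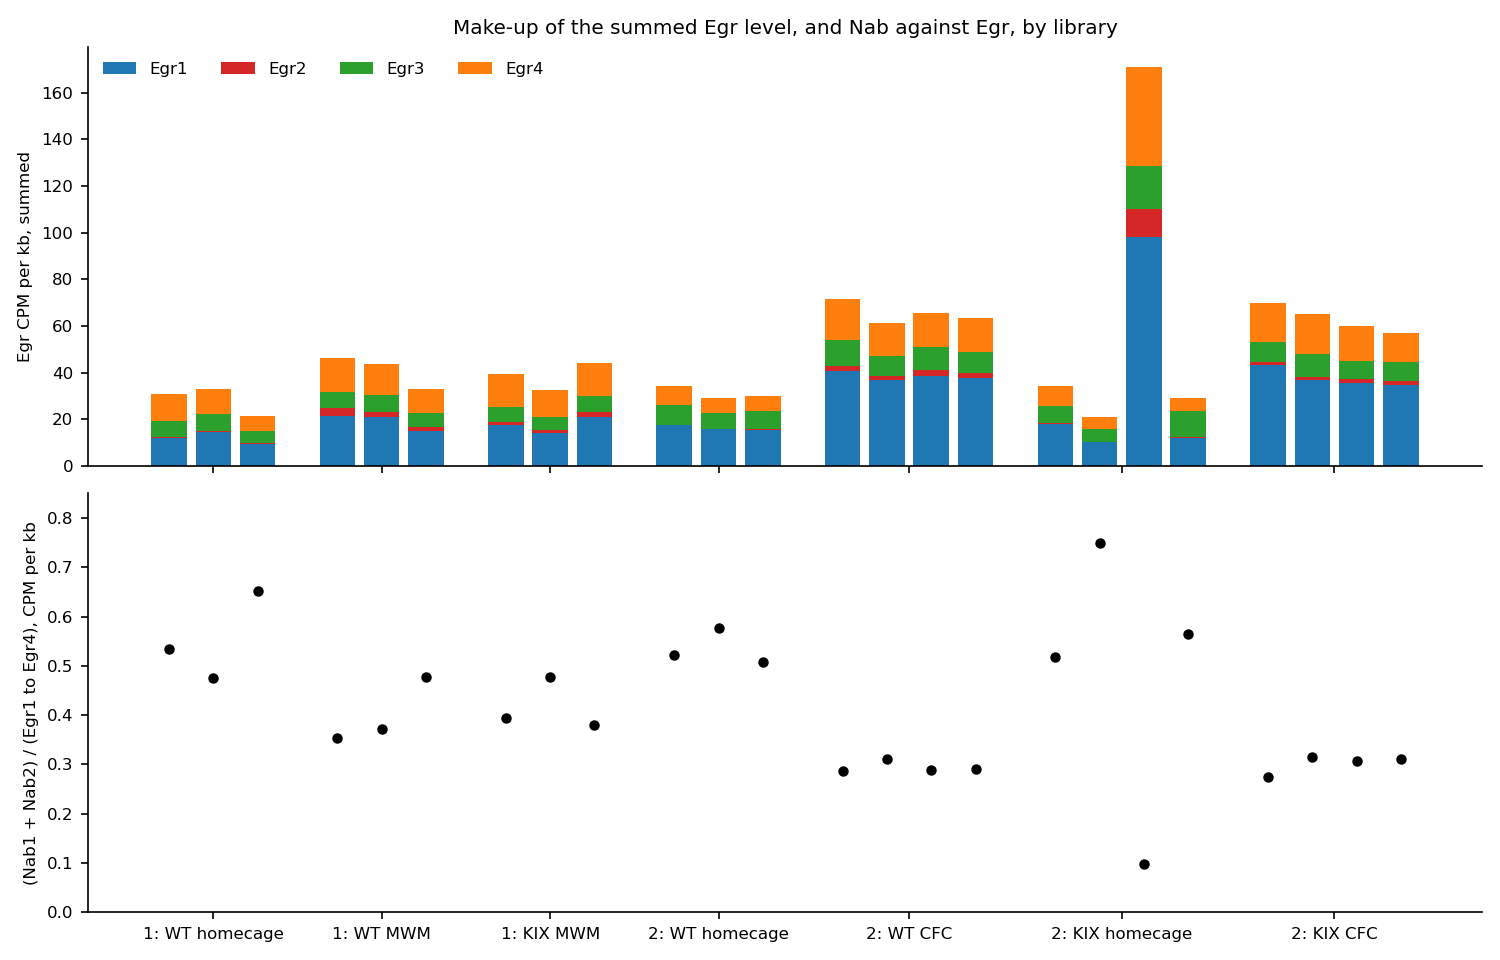
Upper panel, summed level of Egr1 to Egr4 in CPM per kb (vertical axis) in each of 24 libraries, stacked by gene. Lower panel, summed Nab1 and Nab2 level over summed Egr level per kb. Trained mice of RNA-Seq 2 sit near 0.3, their homecage controls other than CBPKIX/KIX homecage replicate 3 at 0.507 or more.

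The genes whose levels ran most like each member were sought over 24 libraries, as Pearson correlation of log2 CPM centred within each experiment, among 18228 genes. Libraries share training groups, and CBPKIX/KIX homecage replicate 3 is an extreme point, so the correlations are descriptions. For Egr1 they were Arc (0.982), the AP-1 gene Junb (0.974) and the nuclear receptor gene Nr4a1 (0.972), and for Egr2 Arc (0.983), Fos (0.976) and Nr4a1 (0.959). For Egr4 they were Arc (0.956), Junb (0.952) and Ier2 (0.930). Egr3 stood apart from its family, with the ERK phosphatase gene Dusp4 (0.893), the chaperone gene Dnajb5 (0.877) and Fosb (0.840), and its correlation with Egr1 was 0.707 against 0.976 between Egr1 and Egr4. Without replicate 3 these were 0.541 and 0.967. Egr1 and Egr4 then kept the same 3 genes, at correlations of 0.961 to 0.975 and 0.891 to 0.941. For Egr2, Junb (0.952) took the place of Nr4a1 (0.948), and for Egr3, Noct (0.753) took that of Fosb, which went from 0.840 to 0.647, while Dusp4 was at 0.813 and Dnajb5 at 0.775.

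Nab1 and Nab2 each ran with other genes. For Nab1 they were the exosome nuclease gene Dis3 (0.894), Ankrd28 (0.858) and the nucleolar gene Nop58 (0.849), and for Nab2 Irf2bp2 (0.851), Mex3d (0.802) and Riox1 (0.797). None of these 6 was called in either pooled comparison. Without replicate 3 Nab2 kept its 3 genes, and for Nab1, Ddx3x (0.866) took the place of Nop58 (0.85). The correlation between Nab1 and Nab2 was -0.20 over all libraries and -0.23 without replicate 3. That of Nab2 with Egr1 was 0.559 and 0.746, and that of Nab1 with Egr1 0.0777 and 0.205. Centred within each of the 7 groups instead, which takes out the training difference, Nab1 with Nab2 was at -0.59, Nab2 with Egr1 at 0.325 and Nab2 with Egr2 at 0.0872. That of Nab2 with Egr4 was 0.599 over all libraries and 0.837 without replicate 3, whose high Egr4 level came with a Nab2 level of 28.2 CPM in the middle of its group.

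**Figure D5:**
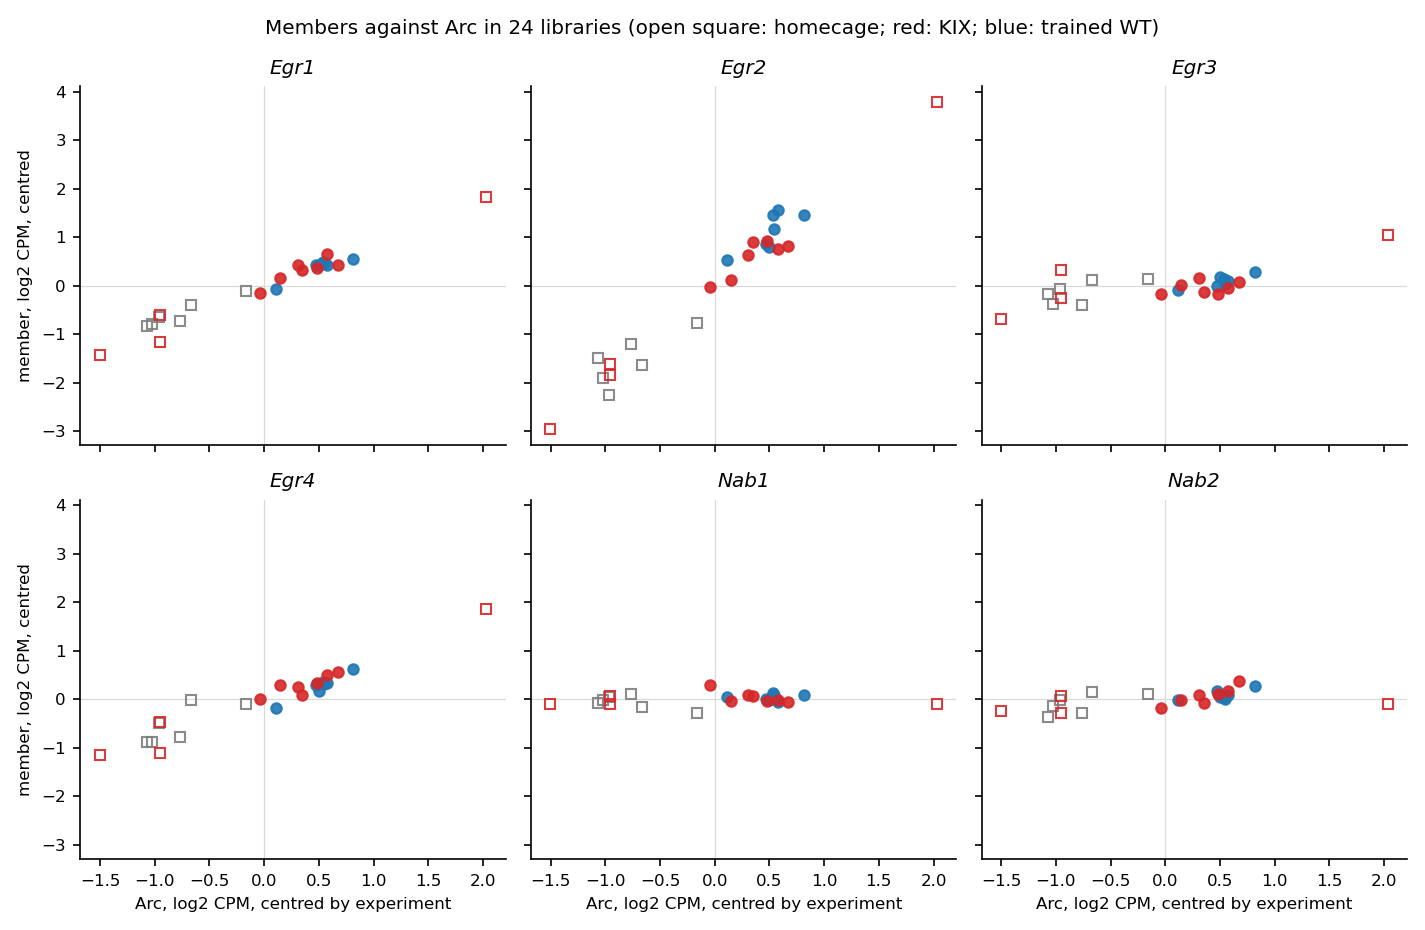
Each member (vertical axis) against Arc (horizontal axis), both as log2 CPM centred within each experiment, in 24 libraries. Open squares are homecage mice, red CBPKIX/KIX, blue trained WT, grey WT homecage. Egr1, Egr2 and Egr4 follow Arc from the homecage to the trained libraries and on to replicate 3 at the upper right, with correlations of 0.982, 0.983 and 0.956, while Nab1 and Nab2 vary over a smaller range. Without replicate 3 Nab2 correlated with Egr1 at 0.746.

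Among other activity-regulated genes the Egr genes were in wide company. In the pooled WT comparison 14 of 20 rose and none fell, beside 0.404% of all genes that rose, with a median log2 fold change of 0.53 against -0.03 over all genes. The lowest p-values were those of Junb (0.90), Arc (1.28), Nr4a1 (1.08) and Fos (1.93, log2 fold change). With 0 factors 6 of the 20 were called, beside 0.0408% of all genes. In the pooled genotype comparison 10 of 20 were lower in CBPKIX/KIX mice and none higher, beside 1.66% of all genes that were lower, with a median of -0.25 against -0.01 over all genes. Those with the lowest p-values were Junb (-0.31), Fos (-0.51), the nuclear receptor gene Nr4a2 (-0.45) and the clock gene Per1 (-0.30). With 0 factors edgeR called none of the 20 there, though 13 had an unadjusted p under 0.05, as did 1893 of all 21489 genes, and the median was -0.24. Arc, the gene closest to Egr1 and Egr2 in pattern, was at -0.15 and was not called (edgeR adjusted p = 0.0620).

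No listed gene upstream of the family was called by edgeR in the pooled comparisons. These are transcript levels, which do not read phosphorylation of the proteins. Of 22 genes of the ERK, SRF and CREB route to Egr transcription, edgeR called none in either pooled comparison, with medians of -0.03 after training and -0.01 for genotype, against -0.03 and -0.01 over all genes. At an unadjusted p under 0.05 there were 5 with training and 4 by genotype, beside 3807 of 22038 and 3909 of 21489 genes in all, and DESeq2 called 1 and 0. None of 13 NuRD complex genes was called by edgeR or DESeq2 in either comparison, with medians of -0.06 and 0.01 and with 4 and 3 genes at an unadjusted p under 0.05 in edgeR. Of 27 genes reported as EGR targets elsewhere, which include Arc, Nab1 and Nab2, Arc rose with training and no other was called, and Pdgfb, a growth factor gene, was lower in CBPKIX/KIX mice (-0.22, edgeR adjusted p = 0.0211). Their medians were -0.01 and -0.02. Over all genes, 1.05% were called with training and 2.84% by genotype. Among 11 other zinc finger genes whose proteins bind GC-rich boxes, 10 were tested. Klf10 rose with training (0.30, edgeR adjusted p = 0.0184) and Klf13 fell (-0.15, edgeR adjusted p = 0.0450), beside 1.05% of all genes called. None of the 10 was called by genotype, beside 2.84% of all genes. With 0 factors Klf10 (0.30, edgeR adjusted p = 0.0718), Klf13 (-0.16, 0.764) and, by genotype, Pdgfb (-0.22, 0.260) were not called.

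Some markers of cell types were called in these 2 comparisons, beside 1.05% of all genes with training and 2.84% by genotype. With training, Folr1 of 6 choroid plexus markers rose by 1.51 and Cldn5 of 3 endothelial markers fell by 0.49 on the log2 scale. In CBPKIX/KIX mice after learning, Gfap and Aldh1l1 of 4 astrocyte markers were at -0.29 and -0.26, and Fibcd1 of 4 CA1 markers was at -0.30. Iyd of 4 CA3 markers was at 0.44 and Prox1 of 5 dentate gyrus markers at 0.21. With 0 factors none of these 7 markers was called, and Folr1 was at 0.97 (edgeR adjusted p = 0.794). None of the tested neuron (6), oligodendrocyte (5), microglia (4), thalamus (4) or Schwann cell markers (2 of 4) was called by edgeR, with at most 2 of a list at an unadjusted p under 0.05, and all neuron markers were expressed in every library, with Camk2a the most abundant. None of 4 blood markers was called by edgeR, and 2 had an unadjusted p under 0.05 by genotype. Summed choroid plexus markers ranged from 32.2 to 4587 CPM over the 24 libraries and varied within every group, with Ttr the most abundant in the high libraries. The part of these differences in the Egr results was not tested.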

How the data were processed

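The authors sequenced dorsal hippocampus RNA, mapped reads with STAR through bcbio-nextgen and counted them per gene with featureCounts 1.4.4 (SAMtools 1.6 is also named, with the builds mm10 and GRCm38). The annotation release and the strand setting are not given in the sources used here. The deposited values are raw counts per gene, with no normalization. Of 51826 identifiers, 51633 matched GENCODE M21 without their version number, which gave symbols and exon lengths, and 193 did not. Promoters came from RefSeq (GRCm38.p6).

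Counts were tested with edgeR 4.0.16 (R 4.3.3) after filterByExpr and upper-quartile scaling, with a quasi-likelihood test and Benjamini-Hochberg adjustment over all genes tested, and a gene was called at an adjusted p under 0.05. Contrasts within an experiment used a single fit over its groups. Pooled contrasts held the experiment as a block and RUVr factors (3 for training, 4 for genotype), after the study's methods but in an implementation of its own, and differences between experiments were fitted over 24 libraries. The study adjusted counts for GC content before this step, while here GC-content normalization was an alternative only. RUVr factors take up variation within groups and shorten the standard errors. The fits of WT CFC against WT homecage and of pooled genotype, the latter with 0 and 4 factors, were run on simulated counts with known changes. The other fits and settings were not. The log2 CPM used a prior count of 2. A count of 0 would allow 3 counts, or 0.0457 to 0.195 CPM by library, and covers counting error only.

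The rule for named genes took all 6 members, Crebbp, the 3 genes nearest in correlation for each member, and from each gene list the called genes with the lowest p, at most 4 in each direction. The members and lists were chosen with earlier results of these data known. Lists covered activity-regulated genes, ERK, SRF and CREB regulators, EGR targets, NuRD, related zinc fingers and cell type markers (neuron, CA1, CA3, dentate gyrus, astrocyte, oligodendrocyte, microglia, choroid plexus, endothelial, Schwann cell, thalamus, blood).

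Replicate numbers are shared between groups in the labels. Deviations from the group means of same-numbered libraries correlated above 0.1 in every pair for WT CFC with WT homecage (0.252 to 0.508) and for CBPKIX/KIX CFC with CBPKIX/KIX homecage (0.193 to 0.392), and not in the other contrasts. Over all 21 same-numbered pairs of RNA-Seq 2 the mean correlation was 0.235, against -0.079 over 63 pairs of different number. Replicates 1 and 2 of each RNA-Seq 2 group held more counts than its later replicates. The main fits held no replicate block. No libraries of a group were duplicates: chi-square per gene was at least 2.74 in all pairs. Alternatives were TMM scaling, DESeq2 1.42.0, filters, GC-content normalization, other numbers of factors, the replicate block, the compared groups alone and each library left out. The replicate block without CBPKIX/KIX homecage replicate 3 was added after seeing the data. No columns of other samples were present (0).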

Additional observations from a re-analysis of the deposited data

Results flagged for a closer look

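In groups of 4 libraries, a library was marked when its gap to the nearest other library took up most of the group's range. Chance gives about 1 in 20, but the members share their libraries, so their groups are not independent. Of 18 such groups of a member's values, 5 were marked. Of these, 3 belong to CBPKIX/KIX homecage replicate 3, at 442 CPM of Egr1, 40.0 CPM of Egr2 and 91.5 CPM of Egr4, where the gap was 0.911, 0.986 and 0.913 of the range. Nab1 was highest in CBPKIX/KIX homecage replicate 4 at 32.7 CPM, with a gap of 0.906 of a narrow range. Egr4 was highest in WT CFC replicate 1 at 38.4 CPM, with a gap of 0.842.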

How the results depend on the processing

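The counts of called genes moved with the settings. Leaving out CBPKIX/KIX homecage replicate 3 also moved the Egr fold changes in contrasts that hold its group. For WT MWM against WT homecage (3 genes, 1 member), DESeq2 called 76 genes and 2 members, no filter 131 and 2, GC-content normalization 7 genes, and the replicate block 1 gene and 0 members; leaving out a library gave 0 to 2418 genes, the most without WT homecage replicate 3, and 0 to 1 members. For CBPKIX/KIX MWM against WT MWM (0 genes), DESeq2 and no filter called 7 each and the groups alone 3, with 0 to 2 over libraries left out. For WT CFC against WT homecage (0 and 0), the groups alone gave 21 genes and 3 members, and the replicate block without CBPKIX/KIX homecage replicate 3, chosen after seeing the data, 17 and 3; libraries left out gave 0 to 17 genes and 0 to 3 members. For CBPKIX/KIX CFC against CBPKIX/KIX homecage (0 and 0), DESeq2 called 301, no filter 55, the replicate block 4, the groups alone 2, and the block without that library 21 genes and 3 members; libraries left out gave 0 to 999 genes and 0 to 3 members. Egr2 reversed there, from -0.96 to 3.12 without replicate 3 and to 3.08 with the block as well, within -1.41 to 3.12 over libraries left out. DESeq2 gave Egr1, Egr2 and Egr4 no p in these CFC contrasts.

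For CBPKIX/KIX CFC against WT CFC (2 genes), DESeq2 called 4, and the groups alone and the block without replicate 3 called 1 each, with 2 to 3 over libraries left out. For CBPKIX/KIX homecage against WT homecage (5 genes), DESeq2 called 58, no filter 17, the replicate block and the CPM filter 3 each, the groups alone 2 and the block without replicate 3 1, with 1 to 445 over libraries left out. The interaction (0) gave 1 with DESeq2 and 0 to 63 over libraries left out. The training effect between experiments (0) gave 15 with DESeq2 and 0 to 601.

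For pooled training (231 genes, 4 members), 0, 1 and 2 factors called 9, 25 and 105 genes, TMM 135, DESeq2 821, no filter 143, GC-content normalization 54, and the replicate block 12 with 0 factors and 912 with factors. With 0 factors 2 members were called, with 1 factor or the block and 0 factors 3, and with DESeq2, the CPM filter, GC-content normalization or the block with factors 5, the 4 Egr genes and Nab2; libraries left out gave 36 to 2274 genes and 3 to 4 members. For pooled genotype (610 genes, 1 member), 0, 1 and 2 factors called 4, 70 and 174 genes, DESeq2 933, no filter 308, GC-content normalization 262, and the replicate block 8 with 0 factors and 2778 with factors. Members called were 0 with 0 or 1 factor and 0 with the block and 0 factors, and 2 with the block and factors (Egr2 and Egr3); libraries left out gave 233 to 1022 genes and 1 to 2 members. The causes were not tested. The Egr2 change with genotype kept its sign in every pooled fit. Homecage Egr2 rests on 14 to 31 counts in most RNA-Seq 2 libraries, which limits its fold changes.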
